A study of Mus musculus with 6 samples.

Results

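The genes of respiratory complex I were compared between Sfpq knockout and control muscle cultures. They were taken as every gene whose mouse symbol starts with Ndufa, Ndufb, Ndufc, Ndufs, Ndufv or Ndufaf and that reached a TPM (transcripts per 1000000 transcripts) of at least 1 in 3 or more libraries. All 47 such symbols with values in the files met that minimum, out of 12460 genes that met it in the series. The 8 Ndufaf genes are assembly factors, and the other 39 are called subunits here by their symbols. That group includes a pseudogene (Ndufs5-ps), a near-copy (Ndufb4b) and the Ndufa4 pair. Ndufa13, Ndufb1 and the subunits encoded in mitochondrial DNA were not analysed here. The knockout group (n = 3 libraries) came from mice that the labels call SfpqSM-KO, and the control group (n = 3 libraries) from mice called control with no allele given. The sources used here do not say what drives the deletion. Both groups were myoblasts cultured from the muscle of male animals aged 1 month. Both were grown in 20% fetal bovine serum with basic fibroblast growth factor at 2.5 ng/mL, and were then held for 4 days in 2% horse serum to differentiate.

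Complex I, NADH:ubiquinone oxidoreductase, is the entry point of electrons from NADH into the mitochondrial respiratory chain. It is L-shaped: a matrix arm carries the flavin and iron-sulfur clusters that pass electrons to ubiquinone, and a membrane arm pumps protons. Its core subunits do the catalysis, its accessory subunits surround them, and assembly factors build the complex and are then released. Skeletal muscle is rich in mitochondria, and most of the complex is encoded in the nucleus. Sfpq is a nuclear protein that binds RNA and takes part in transcription and splicing.

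The cultures expressed muscle markers. The 8 differentiation markers were Myog, Ckm, Acta1, Des, Myh3, Tnnt3, Mymk and Mymx. Their summed TPM was 54754 to 56426 in knockout libraries and 47600 to 49212 in control libraries, with no overlap. Most of the sum was Acta1, which averaged 30842 TPM in knockout against 24426 TPM in controls. Groups were separate for 2 of the 8 genes, Acta1 and Des, both higher in knockout (4.27% of all genes were). Ckm and Tnnt3 had lower means in knockout, with overlap, at log2 differences of −0.22 and −0.25. The myoblast markers Pax7, Myf5 and Myod1 summed to 597 to 648 TPM in knockout libraries and 329 to 671 TPM in control libraries. Most of that sum was Myod1, which had a higher mean in knockout (log2 difference 0.42). Pax7 (−0.38) and Myf5 (−0.68) had lower means, and the groups of each of these markers overlapped. The 6 fibroblast markers summed to 153 to 214 TPM in knockout libraries and 196 to 288 TPM in control libraries, nearly all of it Col3a1 and Col1a1, and Tcf21 was listed at 0 in every library. Col1a1, a collagen gene, was lower in every knockout library than in every control library, with a mean of 15.9 TPM in knockout against 47.4 TPM in controls (log2 difference −1.50, limma adjusted p = 0.271). The 5 macrophage and blood markers summed to at most 1.46 TPM, with Ptprc, Adgre1 and Hbb-bs listed at 0, and endothelial, adipocyte and Schwann cell markers summed to less than 1 TPM in every library. The part of the muscle and fibroblast marker differences in the complex I values was not tested. Sfpq itself stood at 18.3, 19.3 and 14.1 TPM in knockout libraries, against 48.6, 60.5 and 49.9 TPM in control libraries (limma log2 difference −1.57, adjusted p = 0.0529). Read depth cannot be recovered from TPM and is therefore unknown for every value given. In bulk RNA, fewer cells of a type and less RNA per cell cannot be told apart.

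Promoter sequences were read for 40 of the 47 genes from RefSeq on GRCm38.p6, as windows of 300 bases that run from 250 before to 50 after each gene start. The motifs searched on both strands were those of NRF1 (GCGCA and GCGC with any 1 base between them), of ETS factors such as GABPA (CCGGAAG), of YY1 (AANATGGC) and of the estrogen-related receptors (ERR half-site, AAGGTCA). These factors are known regulators of nuclear genes for respiration. The NRF1 motif lay in the windows of 9 of 40 complex I genes (22.5%), against 11.9% of tested genes and 5.19% of all genes with a window. The YY1 motif lay in 14 of 40 (35.0%), against 10.2% of tested genes and 6.96% of all genes. The ETS motif was found in 6 of 40 (15.0%, against 20.5% and 9.93%) and the ERR half-site in 3 of 40 (7.50%, against 3.79% and 5.38%). A GC box (GGGCGG) was present in 20 of 40 (against 69.6% and 38.2%), and a TATA box (TATAAA) in 4 of 40 (against 8.99% and 15.7%). Motifs of different factors overlapped at 1 place, a GC box and an ETS motif in the window of Ndufs3.

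The 250 bases before the start of 3 genes are shown on the strand of the gene, with matches to the NRF1, YY1 and ERR letters in capitals. They were taken from the 11 genes whose upstream bases hold no exon of any GENCODE M21 gene. Ndufs8, with a YY1 match, and Ndufaf4, with an NRF1 match, are shown because their knockout and control libraries did not overlap. Ndufb2 is shown because it holds an ERR half-site while its groups overlapped.
Ndufs8, chr19:3912775-3913024, minus strand: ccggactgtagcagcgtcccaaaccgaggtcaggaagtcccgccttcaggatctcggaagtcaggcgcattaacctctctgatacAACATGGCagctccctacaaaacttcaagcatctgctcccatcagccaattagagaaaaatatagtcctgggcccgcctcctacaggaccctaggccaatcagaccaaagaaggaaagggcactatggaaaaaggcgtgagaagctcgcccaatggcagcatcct
Ndufaf4, chr4:24897833-24898082, plus strand: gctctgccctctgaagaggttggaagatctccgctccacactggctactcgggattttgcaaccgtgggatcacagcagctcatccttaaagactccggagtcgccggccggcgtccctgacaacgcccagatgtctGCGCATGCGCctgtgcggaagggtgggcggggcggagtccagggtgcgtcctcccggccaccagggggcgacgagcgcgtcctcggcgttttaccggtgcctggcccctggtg
Ndufb2, chr6:39592315-39592564, plus strand: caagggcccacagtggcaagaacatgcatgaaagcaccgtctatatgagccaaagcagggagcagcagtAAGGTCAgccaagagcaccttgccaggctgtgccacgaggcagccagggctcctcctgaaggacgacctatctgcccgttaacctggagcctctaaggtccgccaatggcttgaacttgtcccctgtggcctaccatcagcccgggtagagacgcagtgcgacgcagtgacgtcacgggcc

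Most complex I genes had lower values in knockout cultures, by small amounts. Of the 47 genes, 44 had a lower mean on the log2(TPM + 1) scale, where 64.5% of all tested genes did, and 42 lay below the median of all genes. The median log2 difference was −0.17 for the 39 subunits and −0.16 for the 8 assembly factors, beside −0.068 for all genes. Genes that averaged at least 100 TPM on the same scale, 1467 in number, had a median of −0.021. At a Benjamini-Hochberg adjusted p of 0.05, limma called 0 of the 47 genes, and 0% of all genes in either direction. At an unadjusted limma p under 0.05 there were 14 lower and 0 higher members, where 9.62% and 2.68% of all genes were lower and higher. All knockout libraries lay below all control libraries for 14 members (29.8%), against a background of 15.3%, and above them for 0, against 4.27%.

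That count depended on scaling, and it rose most without control replicate 2 or Sfpq knockout replicate 3. Leaving out a library can only keep or raise such a count, and the share of all genes rose too. Control replicate 2 was the lowest control for 34 of the 47 genes, and Sfpq knockout replicate 1 was the lowest of all 6 libraries for 29. Without control replicate 2 there were 31 members with separate groups (66.0%, against 23.5% of all genes), and without Sfpq knockout replicate 3 there were 26 (55.3%, against 20.1%). Leaving out Sfpq knockout replicate 1 gave 15 (31.9%, against 21.4%). After median-of-ratios scaling 4 members were separate in that direction (8.51%), which is near the 9.30% of all genes. After quantile normalization there were 12 (25.5%, against 8.59%). The count at an unadjusted p under 0.05 was 5 without Sfpq knockout replicate 1, 4 without control replicate 1 and 4 without control replicate 3, where all genes gave 6.11%, 8.60% and 5.49%. After either scaling 42 of 47 genes were below 0. The all-gene median was then −0.0037 after median-of-ratios scaling and 0.00097 after quantile normalization. The subunit median lay below that of all genes in each of these settings. Members below the all-gene median numbered 42 as deposited, 33 without Sfpq knockout replicate 1 and 34 without control replicate 1.

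**Figure D1:**
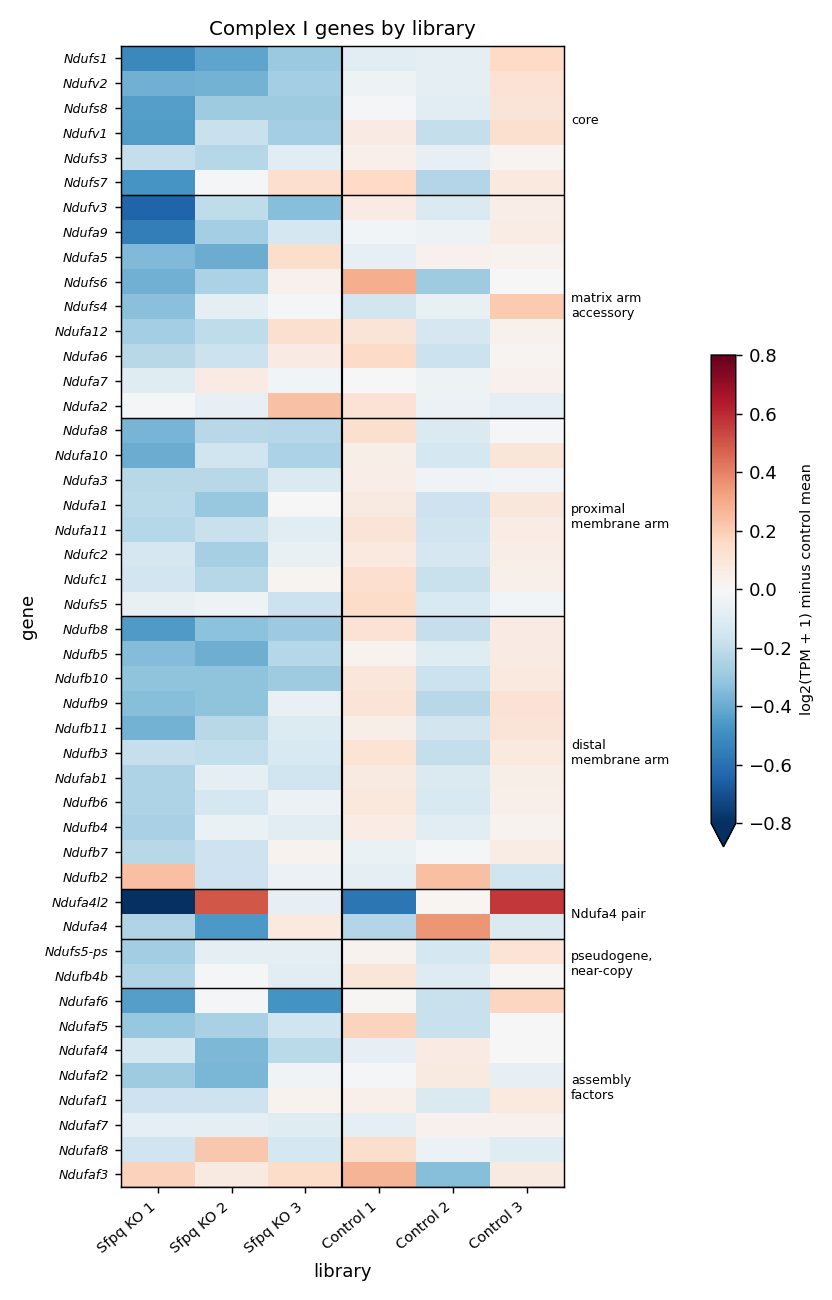
Each row is 1 of 46 complex I genes and each column 1 library, Sfpq knockout left of control; colour gives log2(TPM + 1) minus the mean of the 3 control libraries. Most knockout cells are blue, those of knockout replicate 1 most often the darkest, and control replicate 2 is paler or bluer than the other controls.

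In TPM, the 39 subunits summed to 12216, 12917 and 14129 in knockout libraries, against 15522, 14231 and 15510 in control libraries. Every knockout sum lay below every control sum, though knockout replicate 3 and control replicate 2 were close. Without the pseudogene, the near-copy and the Ndufa4 pair the groups overlapped, at 11152 to 12825 TPM in knockout libraries and 12714 to 14396 TPM in control libraries. Over all 39 subunits the means were 13087 ± 968 TPM in knockout and 15088 ± 742 TPM in control (SD, n = 3 each), or 1.31% and 1.51% of all TPM. The knockout mean was 86.7% of the control mean. The 8 assembly factors were far less abundant and summed to 204, 209 and 213 TPM in knockout libraries, against 234, 205 and 224 TPM in control libraries, so the groups overlapped.

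The 6 nuclear core subunits described here all had lower means in knockout, with a median log2 difference of −0.32. Groups were separate for 4 of them, where 15.3% of all genes were separate in that direction. An unadjusted p under 0.05 was found for 4, where 9.62% of all genes were lower at that p. Ndufs1, which carries iron-sulfur clusters of the NADH-oxidising module, stood at 131, 139.7 and 152 TPM in knockout libraries, against 177, 178 and 209.5 TPM in control libraries. Its log2 difference of −0.41 (SE 0.10, limma adjusted p = 0.242) was the furthest from 0 among the 47 genes. Ndufv2, an iron-sulfur subunit of the same module, was at 163, 163 and 176 TPM in knockout libraries and at 207, 202 and 230.3 TPM in control libraries. The groups were separate, and the log2 difference was −0.35 (SE 0.086, limma adjusted p = 0.239). Ndufv1, which binds NADH and the flavin, was at 371, 448 and 419 TPM in knockout libraries, against 530.1, 444 and 554 TPM in control libraries. Here knockout replicate 2 lay just above control replicate 2, so the groups overlapped (log2 difference −0.30, SE 0.12, limma adjusted p = 0.387).

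The core subunits next to the ubiquinone site varied more. Ndufs8, a ferredoxin-like subunit whose promoter is shown above, stood at 351, 390.2 and 391 TPM in knockout libraries, against 471, 448 and 511 TPM in control libraries. The groups were separate (log2 difference −0.34, SE 0.092, limma adjusted p = 0.266). Ndufs3, another subunit of the ubiquinone-reducing module, was at 356, 347 and 385 TPM in knockout libraries, against 419.7, 389.6 and 413 TPM in control libraries. Its groups were separate too, with a smaller log2 difference of −0.17 (SE 0.083, limma adjusted p = 0.461). Ndufs7, which carries the last iron-sulfur cluster before ubiquinone, ranged from 380.4 to 579 TPM in knockout libraries and from 447 to 589 TPM in control libraries. Its groups overlapped widely, its log2 difference was −0.12 (SE 0.18), and without Sfpq knockout replicate 1 it was 0.062.

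**Figure D2:**
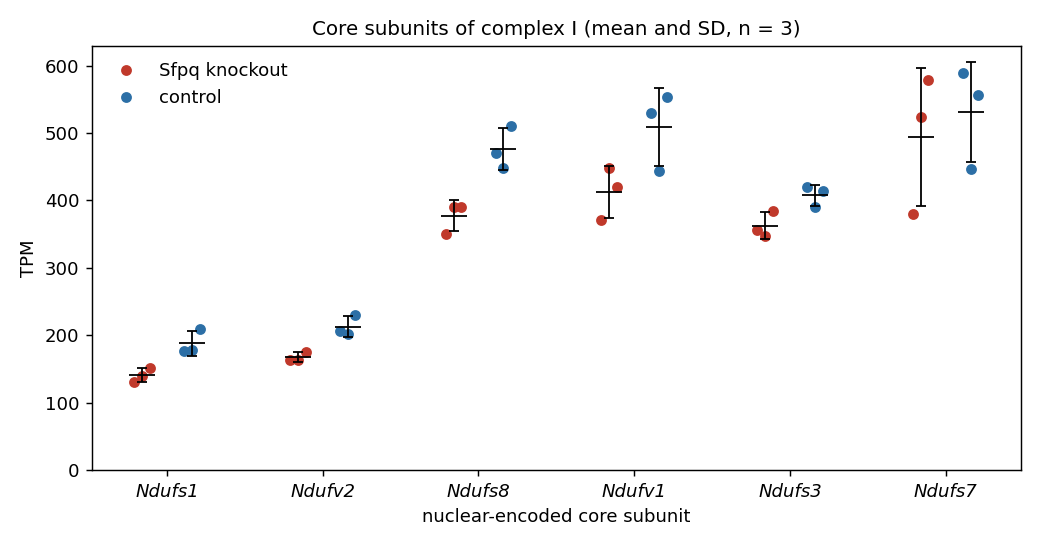
TPM of 6 core subunits, with 1 point per library, Sfpq knockout left of control, and the mean with its SD (n = 3). The groups do not overlap for Ndufs1, Ndufv2, Ndufs8 and Ndufs3, and overlap for Ndufv1 and Ndufs7.

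The 9 accessory subunits of the matrix arm had a median log2 difference of −0.14, and 8 were lower. Ndufv3, a small subunit at the tip of that arm, was at 403, 546 and 495 TPM in knockout libraries, against 658, 579 and 651 TPM in control libraries. Ndufa9, which binds a nucleotide cofactor where the arms meet, was at 194, 236 and 259 TPM in knockout libraries, against 282, 277 and 298 TPM in control libraries. These were the members with separate groups, 22.2% of the 9, against 15.3% of all genes. Their log2 differences were −0.39 (SE 0.13, limma adjusted p = 0.334) and −0.32 (SE 0.12, limma adjusted p = 0.370). For both, knockout replicate 1 was the lowest library by some distance. Ndufa5 averaged 214 ± 46.7 TPM in the knockout group against 243 ± 9.15 TPM in controls (SD, n = 3 each). Ndufs6, a zinc-binding subunit, averaged 199.5 ± 30.3 TPM in the knockout group against 231 ± 46.4 TPM in controls. Ndufa6, which docks the acyl carrier protein and was the most abundant of the group, averaged 713 ± 78.1 TPM in the knockout group against 769 ± 86.2 TPM in controls. The groups overlapped in all of these. Ndufa2 and Ndufa7, named after their values were seen, showed no lower mean or almost none: 389 ± 44.5 and 374 ± 27.3 TPM for Ndufa2, and 589 ± 32.4 and 596 ± 15.0 TPM for Ndufa7, in knockout and control.

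In the membrane arm, all 8 accessory subunits of the part nearest the matrix arm had lower means, with a median log2 difference of −0.17. Ndufa8, an intermembrane-space subunit, was at 242, 268 and 267 TPM in knockout libraries, against 343, 289 and 310.4 TPM in control libraries. Ndufa10, which has the fold of a nucleoside kinase, was at 356, 419 and 393 TPM in knockout libraries and at 483, 424 and 500.1 TPM in control libraries. Ndufa3 was at 263, 263 and 283 TPM in knockout libraries, against 318, 302 and 302 TPM in control libraries. The groups of all 3 were separate, narrowly so for Ndufa10, where knockout replicate 2 and control replicate 2 nearly met. These 3 were 37.5% of the 8, against 15.3% of all genes. Their log2 differences were −0.28 (SE 0.096), −0.27 (SE 0.11) and −0.19 (SE 0.077), with limma adjusted p of 0.342, 0.384 and 0.396. Ndufa11 overlapped, with a mean of 90.5 ± 4.72 TPM in the knockout group against 102 ± 9.76 TPM in controls.

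At the far end of the membrane arm, 10 of 11 accessory subunits had lower means, again with a median of −0.17. Ndufb5 was at 281, 273 and 305 TPM in knockout libraries, against 365, 334 and 374 TPM in control libraries. Ndufb8, the most abundant of the group, was at 735, 802 and 822 TPM in knockout libraries and at 1090.4, 887 and 1055 TPM in control libraries. Ndufb10 was at 598, 599 and 614 TPM in knockout libraries, against 797, 665 and 791 TPM in control libraries. All 3 had separate groups, and they were 27.3% of the 11, against 15.3% of all genes. Their log2 differences were −0.32 (SE 0.087), −0.36 (SE 0.11) and −0.31 (SE 0.10), with limma adjusted p of 0.266, 0.315 and 0.324. The knockout libraries of Ndufb10 lay close together, and control replicate 2 lay nearest to them. Ndufb11 averaged 449 ± 41.8 TPM in the knockout group against 529 ± 47.5 TPM in controls, with overlap. Ndufb4, whose promoter has 3 NRF1 matches, was at 207, 239 and 234 TPM in knockout libraries, against 258, 233 and 253 TPM in control libraries. Its log2 difference of −0.13 (SE 0.091) was near that of its near-copy Ndufb4b (−0.11, SE 0.096), with which it may share reads. Ndufs5-ps, a pseudogene of Ndufs5, was at −0.14 (SE 0.10), and reads of that pair may likewise not be separable. Ndufb2, named after its values were seen and with its promoter shown above, averaged 270.2 ± 40.2 TPM in the knockout group against 268 ± 40.8 TPM in controls.

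The Ndufa4 pair was the most variable. Ndufa4, now held to be a subunit of cytochrome oxidase, was the most abundant of the 47 genes, at 838, 721 and 1045 TPM in knockout libraries, against 841, 1265 and 913 TPM in control libraries. Its paralog Ndufa4l2, known as a gene induced by hypoxia, was the least abundant and the nearest to the minimum, at 1.39, 7.32 and 4.63 TPM in knockout libraries, against 2.94, 4.96 and 7.70 TPM in control libraries. Both overlapped between the groups, with log2 differences of −0.21 (SE 0.20) and −0.29 (SE 0.49).

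**Figure D3:**
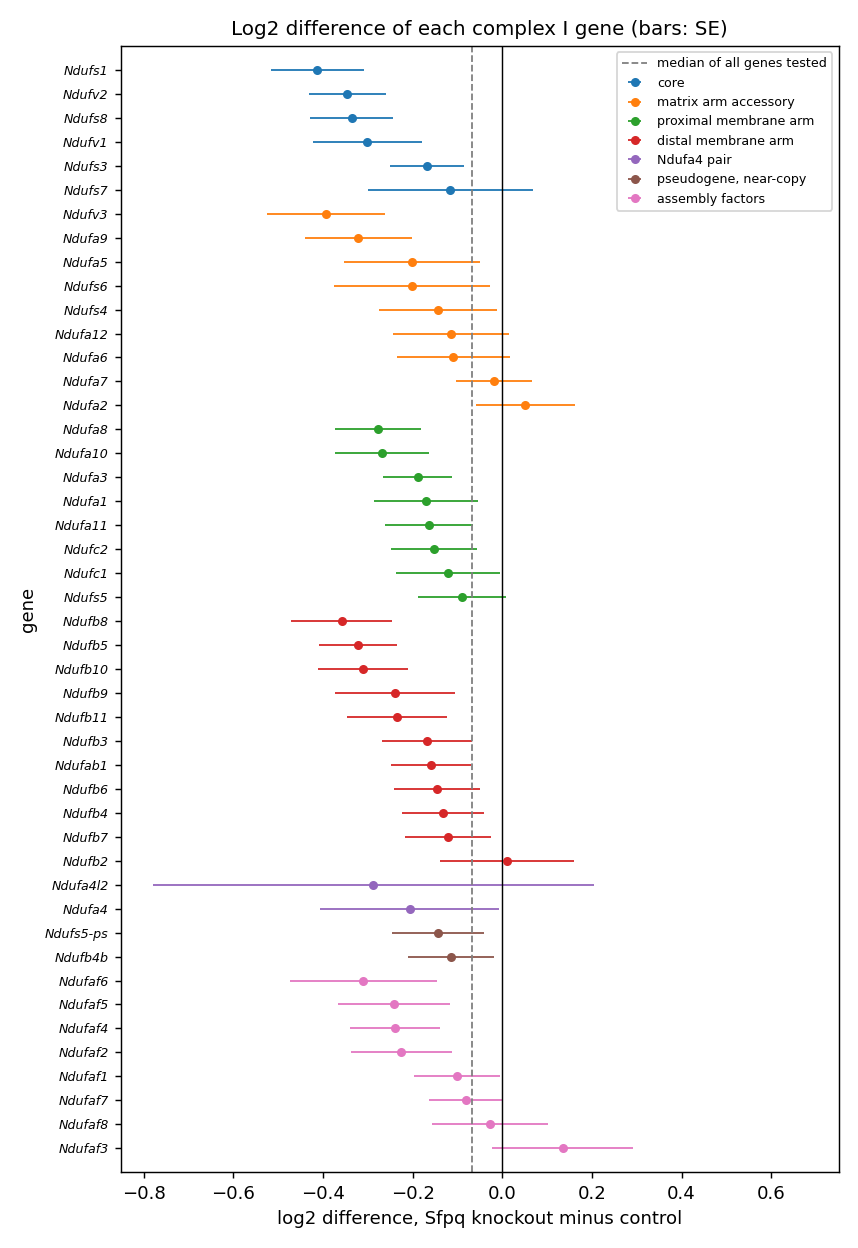
Log2 difference (Sfpq knockout minus control, on the log2(TPM + 1) scale) of 46 complex I genes, each with its SE, grouped by role; the dashed line is the median of all tested genes at −0.068. Core subunits run from −0.41 to −0.12 and assembly factors from −0.31 to 0.13.

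The assembly factors, whose roles are known mainly from human cells, ran from −0.31 to 0.13 in log2 difference, with a median (−0.16) close to that of the subunits (−0.17). Groups were separate for 1 of 8 (12.5%, against 15.3% of all genes), Ndufaf4, a factor of early steps that works with Ndufaf3, with its promoter shown above. Ndufaf4 was at 14.3, 12.2 and 13.5 TPM in knockout libraries, against 15.1, 16.7 and 15.9 TPM in control libraries (log2 difference −0.24, SE 0.099, limma adjusted p = 0.403). Its partner Ndufaf3 was at 53.9, 49.8 and 52.5 TPM in knockout libraries, against 57.3, 37.2 and 49.7 TPM in control libraries. That gave the highest log2 difference of the 47 genes, 0.13 (SE 0.16), which rested on control replicate 2 and was −0.035 without it. Ndufaf2, a chaperone of late assembly and a paralog of Ndufa12, was at 23.5, 22.1 and 28.2 TPM in knockout libraries, against 28.6, 30.2 and 27.4 TPM in control libraries. Ndufaf5, which hydroxylates Ndufs7, averaged 7.87 ± 0.454 TPM in the knockout group against 9.52 ± 1.31 TPM in controls, and its partner Ndufaf8 31.9 ± 4.93 and 32.3 ± 2.87 TPM (SD, n = 3 each). Ndufaf6 averaged 10.6 ± 2.21 and 13.3 ± 1.74 TPM, Ndufaf1 47.6 ± 3.82 and 51.1 ± 3.61 TPM, and Ndufaf7, which methylates a core subunit, 20.6 ± 0.191 and 21.9 ± 0.985 TPM, in knockout and control. All of these overlapped between the groups except Ndufaf4.

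Of 11 other genes for complex I assembly with values, 10 were lower in knockout, with a median log2 difference of −0.25. At an unadjusted p under 0.05 there were 4 of the 11 (36.4%, against 9.62% of all genes), and 3 had separate groups (27.3%, against 15.3%). Foxred1, an oxidoreductase needed late in assembly, stood at 24.1, 29.9 and 28.8 TPM in knockout libraries, against 41.9, 34.5 and 39.5 TPM in control libraries. Ecsit was at 66.0, 67.0 and 67.4 TPM in knockout libraries, against 85.3, 76.3 and 85.2 TPM in control libraries. Acad9, which works with Ecsit and Ndufaf1 in one assembly complex, was at 16.1, 18.7 and 18.0 TPM in knockout libraries, against 21.8, 21.2 and 22.9 TPM in control libraries. Each of the 3 was lower in every knockout library than in every control library, with log2 differences of −0.47 (SE 0.12), −0.29 (SE 0.079) and −0.31 (SE 0.093) and limma adjusted p of 0.244, 0.264 and 0.305. Coa1 was not analysed here.

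Set beside the other respiratory complexes, complex I subunits as a whole did not stand apart as lower. Of 41 nuclear genes of complexes II to V, 39 were lower, where 64.5% of all genes were. Separate groups in that direction were found for 16 (39.0%, against 15.3% of all genes). In the other direction they were found for 1 (all genes 4.27%), and 0 of the 41 passed the test over all genes. Their median log2 differences were −0.29 for complex II, −0.25 for complex III, −0.24 for complex IV and −0.27 for complex V, all below the −0.17 of complex I subunits and above the −0.32 of the 6 core subunits described. That difference between complexes was not tested. The median of all 47 complex I genes lay above that of each other complex on the deposited scale and after both scalings. Without Sfpq knockout replicate 1 or without control replicate 1 it was −0.15 and lay below that of complex IV (−0.13 in each).

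**Figure D4:**
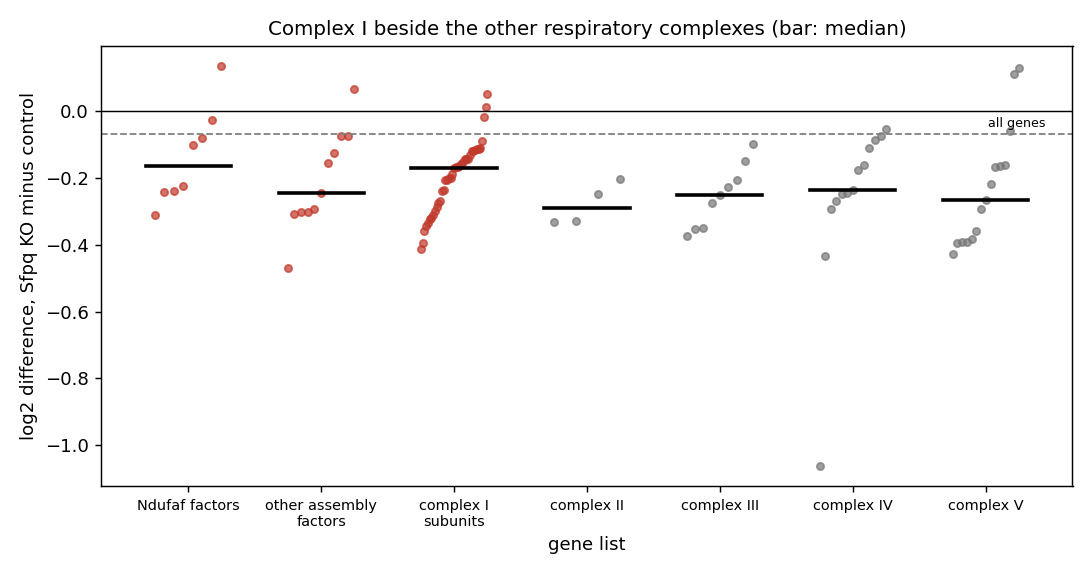
Log2 difference (Sfpq knockout minus control) of each gene, with Ndufaf factors, other assembly factors and all complex I subunits in red and complexes II to V in grey; bars are medians and the dashed line is the median of all tested genes at −0.068. The medians drawn run from −0.29 for complex II to −0.16 for the Ndufaf factors.

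Transcriptional regulators of these genes were split. All 10 had lower means in knockout, where 64.5% of all genes did. Separate lower groups (15.3% of all genes) and an unadjusted p under 0.05 (9.62%, lower) were both found for 5. These were Esrra, Esrrb, Esrrg, Ppargc1a and Ppargc1b, the estrogen-related receptors and their coactivators. Ppargc1a spans 662 kb, Esrrg 606 kb, Esrrb 161 kb, Ppargc1b 109 kb and Esrra 11.1 kb. Among tested genes of 50 kb or more, 22.2% had separate lower groups. Nrf1 (105 kb) and Gabpb1 (55.5 kb) are in that class too, and their groups overlapped. The part of span in these differences was not tested. Esrra was at 71.3, 63.9 and 72.9 TPM in knockout libraries, against 87.5, 80.8 and 81.0 TPM in control libraries (log2 difference −0.26, SE 0.086). The largest difference was that of Esrrb (log2 difference −1.89, SE 0.28), and limma adjusted p over the 5 ran from 0.104 to 0.330. Nrf1 averaged 12.8 ± 0.927 TPM in the knockout group against 12.9 ± 1.97 TPM in controls (SD, n = 3 each). For Gabpa the means were 19.1 ± 1.38 TPM in knockout against 20.0 ± 1.63 TPM in controls, and for Yy1 55.3 ± 2.21 TPM in knockout against 56.3 ± 2.32 TPM in controls. Among complex I genes with a window, the ERR half-site was found in 0 of the 12 with separate groups and in 3 of the other 28, Ndufb2, Ndufb4 and Ndufs5. The NRF1 motif was found in 2 of 12 and 7 of 28, and the YY1 motif in 6 of 12 and 8 of 28. Median log2 differences with and without the NRF1 motif were −0.20 and −0.17, and those with and without the YY1 motif were −0.19 and −0.17.

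Each gene was also set against the median subunit of its own library, a measure chosen after values were seen. Over the 39 subunits, the difference between knockout and control in that ratio ran from −0.21 (Ndufs1) to 0.25 (Ndufa2) on the log2 scale. Groups were separate in the lower direction for 1 of the 47 genes, Ndufb5 (−0.12), where 2.66% of all genes were. In the higher direction they were separate for 3, Ndufa2 (0.25), Ndufa7 (0.18) and Ndufaf3 (0.34), where 18.8% of all genes were. The ratio shows unequal differences within a library and not that any transcript was unchanged.

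The study's title names long genes, and complex I genes are mostly short. Their genomic spans, from RefSeq on GRCm38.p6, ran from 0.471 kb (Ndufb4b) to 106 kb (Ndufaf2), with a median of 7.69 kb. The 30 genes under 10 kb had a median log2 difference of −0.16, beside −0.023 for the 3258 tested genes of that span, and 5 of them had separate groups, where 9.64% of all genes in this span class did. The 15 genes of 10 to 50 kb had a median of −0.27, beside −0.070 for 5641 genes, and 9 had separate groups (the background in this span class was 15.2%). In the class of 50 kb or more, all genes had a median of −0.11 and 22.2% had separate groups. Of its 2 complex I genes, Ndufaf2 (chromosome 13, 108052589 to 108158652) had a log2 difference of −0.22 (SE 0.11) and Ndufs4 (chromosome 13, 114287795 to 114388094), an accessory subunit of the matrix arm, one of −0.14 (SE 0.13). The groups of both overlapped. Ndufs4 stood at 166, 198 and 208 TPM in knockout libraries, against 189, 201 and 242 TPM in control libraries. Across the 47 genes Spearman's rho between span and log2 difference was −0.37, a description over genes that share the same 6 libraries.

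Exons of 15 of the 45 genes found in GENCODE M21 overlap those of another annotated gene. The largest overlap was that of Ndufb6, 257 exonic bases with Smim27. Ndufs1 shares 248 with the noncoding gene Ino80dos, Ndufb5 158 with Mrpl47 and Ndufs3 88 with Kbtbd4. Each of these lies on the opposite strand. On their own strand, Ndufb9 shares 201 with Gm49356, Ndufb2 145 with Gm42420 and Ndufb8 134 with Gm20538. The sources used here do not say whether the counting used strand, so reads in these stretches cannot be assigned with certainty. Each of the 47 genes was represented by 1 RefSeq accession, so isoforms such as those of Ndufv3 were not resolved.

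**Figure D5:**
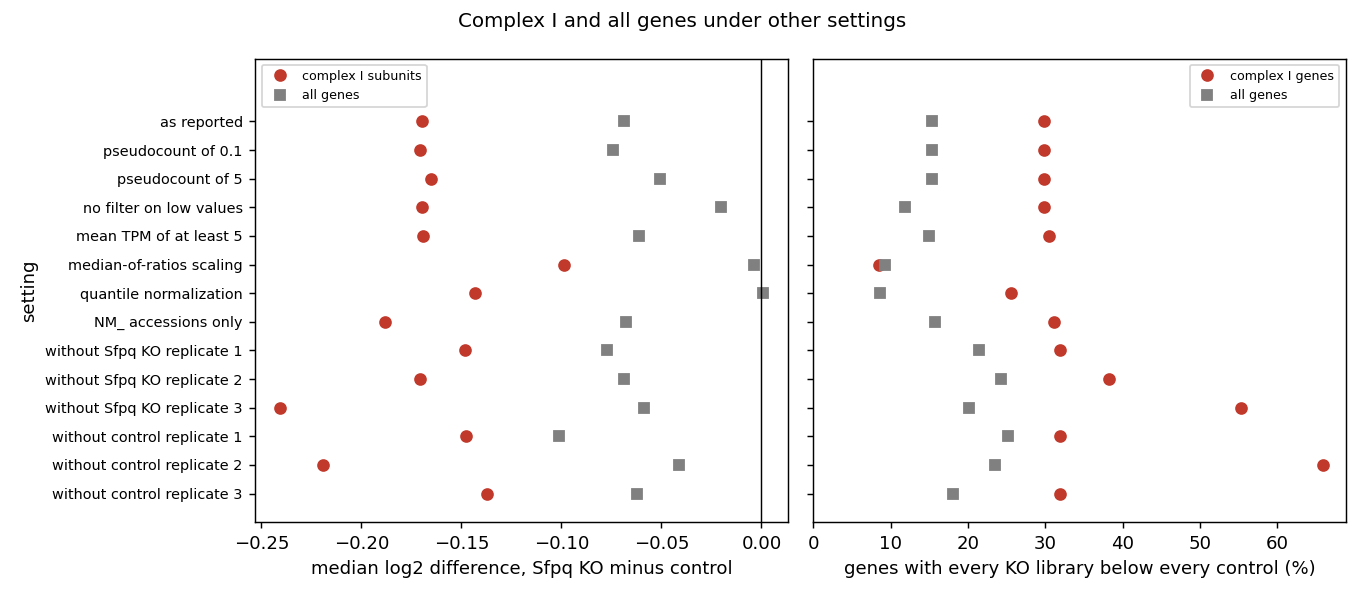
Left, median log2 difference (Sfpq knockout minus control) of complex I subunits and of all tested genes under each setting; right, the percentage of complex I genes and of all genes with every knockout library below every control library. The subunit median stays left of that of all genes in each setting shown, while the percentage ranges from 8.51% after median-of-ratios scaling to 66.0% without control replicate 2. All genes gave 9.3% and 23.5% in those settings.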

How the data were processed

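Libraries of polyA RNA were read on an Ion Proton, per the labels. The authors deposited 1 TPM value for each RefSeq accession in each library, and these sum to 1000000 per library. STAR 2.4.1d and the mm10 genome are named in the submitters' processing notes, while the sources used here do not name the counting tool or say whether strand was used. Of 34671 accessions, 30824 were named through a RefSeq table of GRCm38.p6 and 103 through GENCODE M21. The other 3744, with at most 1.27% of TPM, kept their accession. TPM was summed per symbol, giving 34655 genes.

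The test (limma 3.58.1, R 4.3.3) ran on log2(TPM + 1) of the 12460 genes that reached 1 TPM in 3 or more libraries. The fit used the intensity trend and no block, and the moderated test was 2-sided with Benjamini-Hochberg adjustment over all genes at 0.05. Fold changes on this scale understate those of low genes. TPM is not a count, so no count model was used. On simulated data for this comparison over 12460 genes, 78% of genes changed by 1 on the log2 scale and 98% of those changed by 2 were recovered, with 10 false calls. The changed genes were drawn only from those with a mean log2(TPM + 1) above 3, so these shares do not cover lower genes. The simulated noise was independent between genes, and smaller changes were not simulated. Recovery at the size of the complex I differences (Ndufs1, the furthest from 0, was at −0.41) is therefore unknown. In the deposited data 0 genes were called, and Sfpq, at −1.57, had a limma adjusted p of 0.0529. Groups were taken from the titles. The series gives 3 mice per genotype without tying libraries to separate mice or cultures. The p-values therefore cover only how these samples vary, and that spread may be technical.

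The members and gene lists were chosen with earlier results of these data known. The genes named are Sfpq, core subunits, Ndufaf genes, in other role groups the 4 with the smallest p and the most abundant, the 3 other assembly factors with the smallest p, and regulators at an unadjusted p under 0.05. Others are said to be named after their values were seen, or are given for their span, near-copy or exon overlap. Alternatives covered the pseudocount (0.1 and 5), the filter, scaling, mRNA accessions alone, limma with robust moderation or without the trend, a replicate block, an adjusted p under 0.1 and each library left out. Python 3.11.15, pandas 2.3.3 and matplotlib 3.10.9 were used for joining and plots. Of the 47 genes, 1 is counted in the totals but is not reported here on its own.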

Additional observations from a re-analysis of the deposited data

How the results depend on the processing

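Under every alternative run, 0 complex I genes passed the test, also at an adjusted p under 0.1. Genes at an unadjusted p under 0.05 numbered 14 lower (all genes 9.62%) and 4 after median-of-ratios scaling (5.85%). There were 8 after quantile normalization (5.45%) and 7 with the replicate block (6.71%). With 1 library left out they numbered 4 to 16, and the all-gene shares for the counts of 4 are given above. That for the count of 16 is not given, so that count cannot be set against a background. Genes with separate lower groups numbered 14 (all genes 15.3%) and 4 after median-of-ratios scaling (9.3%). They also numbered 4 when each library's median over all genes was removed (added after seeing the data). The all-gene share in that setting is not given, so this count cannot be set against a background. With 1 library left out they numbered 15 to 31, where all genes gave 18.1% to 25.2%. Members with separate higher groups then numbered 0 to 1, where the all-gene share with all 6 libraries was 4.27%. The subunit median stayed between −0.24 and −0.14 with 1 library left out and was −0.10 and −0.14 after the scalings. That of the assembly factors was −0.093 after median-of-ratios scaling, −0.10 after quantile normalization and −0.20 to −0.13 with 1 library left out. The log2 ratio of summed subunit TPM, −0.21, ran from −0.26 to −0.16. Without the pseudogene, the near-copy and the Ndufa4 pair (also added) the subunit median was again −0.17. Of 41 genes followed one by one, 4 turned sign somewhere, none of them called. Ndufaf8 was 0.042 after median-of-ratios scaling, 0.032 after quantile normalization and −0.15 to 0.041 with 1 library left out. Leaving out 1 library gave −0.68 to 0.22 for Ndufa4l2, −0.24 to 0.062 for Ndufs7 and −0.035 to 0.27 for Ndufaf3. Sfpq passed with a pseudocount of 5 (limma adjusted p = 0.0429) and at a mean TPM of at least 5 (limma adjusted p = 0.0445). Same-numbered libraries deviated from their group means with correlations of −0.26, −0.25 and 0.05 over genes. The labels do not say whether they were paired. Deviations from a mean of 3 libraries depend on one another, so these correlations cannot decide it. None of the 6 libraries correlated best with its own number, and the highest correlation was 0.41, between Sfpq knockout replicate 1 and control replicate 2. The cause of these differences between settings was not tested. Unknown read depth limits the values of the least abundant genes, Ndufa4l2 above all.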
